A study of Homo sapiens with 12 samples.

Results

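MAVS (ENSG00000088888) is 1 of the 31707 genes with a read in the deposited tables, and it was picked by its gene ID, because its mRNA has been reported as bound by ADAR3. Earlier results of these data were known when it was picked. The values below describe how much of each library its RNA made up when ADAR3 was immunoprecipitated (IP) from U373-MG cells, a human glioblastoma line. Each of the 12 libraries belongs to 1 of 3 groups of 4: IP with an antibody to endogenous ADAR3, IP with pre-immune serum to control for RNA recovered without that antibody, and input RNA. All 3 groups came from cells crosslinked with ultraviolet light at 150 mJ/cm2 before lysis and sonication, with no treatment or genetic change named in the labels. A single cell line was used, and the labels name no separate cultures. The p-values therefore speak only of how much these libraries differed among themselves, and that variation may be technical.

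MAVS is the adaptor protein that passes the alarm from the cytosolic RNA sensors RIG-I and MDA5 to the interferon response. Sensors that have bound viral or other double-stranded RNA meet MAVS through caspase recruitment domains at the outer mitochondrial membrane. MAVS then assembles into filaments, recruits TRAF ubiquitin ligases and switches on the kinases TBK1 and IKK, which activate IRF3 and NF-kappaB. The ADAR proteins bind double-stranded RNA: ADAR1 edits adenosines to inosines in the cell's own transcripts and thereby keeps this pathway quiet, whereas no editing activity is known for ADAR3, a brain-enriched member encoded by ADARB2. The comparisons here ask whether MAVS mRNA made up more of the ADAR3 IP than of the serum IP and of input.

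The gene lies on the + strand of chromosome 20, from 3846834 to 3876118 in RefSeq's annotation of GRCh38.p14, a span of 29285 bases. RefSeq lists 3 coding transcripts and 1 non-coding transcript for it. No other RefSeq gene overlaps this span. AP5S1, a subunit of an adaptor complex for vesicle traffic, ends 17995 bases before it, and the antisense transcript PANK2-AS1 lies 10250 bases beyond its end. The annotation behind the authors' counts is not given in the sources used here and may differ from RefSeq. Values are per gene, so the tables do not tell which transcript or which stretch of the mRNA was recovered.

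MAVS RNA made up a larger part of every ADAR3 IP library than of any pre-immune or input library. Levels are given as CPM, the reads of the gene per 1000000 reads assigned to genes in that library. In ADAR3 IP replicates 1 to 4 the MAVS level was 271, 281, 255 and 313 CPM. In pre-immune IP it was 202, 162, 238 and 189 CPM. In input it was 178, 184, 182 and 191 CPM. The lowest antibody library, replicate 3, thus stood above the highest pre-immune library, also replicate 3, by a narrow margin, and well above all 4 input libraries. The pre-immune and input groups overlapped, with pre-immune libraries lying on both sides of the input range.

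**Figure D1:**
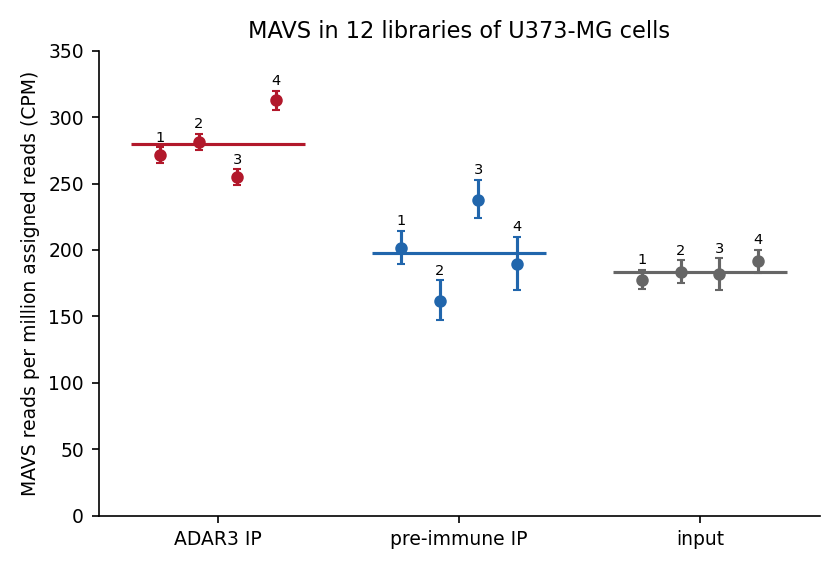
MAVS level in CPM (y axis, starting at 0) in each of the 12 libraries, by group; points are libraries with their replicate number, whiskers are exact 95% Poisson intervals for counting error alone, and horizontal lines are group means. Levels run from 255 to 313 CPM with antibody, 162 to 238 CPM with serum and 178 to 191 CPM in input.

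These levels rest on many reads, and the replicates differed more than counting alone would give in both IPs. MAVS had 6939 to 8487 reads in each ADAR3 IP library, 355 to 1045 in each pre-immune library and 885 to 2269 in each input library. The mean counting error was 1.14% of the level in ADAR3 IP, whereas the coefficient of variation between its 4 libraries was 8.72%. In pre-immune IP the counting error was 4.07% and the variation 16.0%, and in input they were 2.53% and 3.14%. The labels name no molecular identifiers, so reads may not be independent molecules and these errors cover counting alone. The mean level with antibody was 280 ± 24.4 CPM, with serum 198 ± 31.7 CPM, and before any IP 184 ± 5.77 CPM (SD, n = 4 each). The groups differed in depth as well, with 23999234 to 30156884 assigned reads per antibody library, 1875461 to 4946149 per serum library and 4873428 to 12772412 per input library. All the RNA recovered went into each IP library, so a level is a share of the recovered RNA and says nothing about the amount.

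Against the serum control, MAVS stood 1.35-fold higher in ADAR3 IP on the authors' scale and 1.43-fold higher in CPM. On the authors' normalized counts, which are reads divided by a size factor per library, it stood at 2403, 2542, 2238 and 2782 in ADAR3 IP replicates 1 to 4 and at 1920, 1561, 2091 and 1836 in pre-immune IP. The groups did not overlap on this scale either, as held for 8.8% of all genes tested in this direction, and the means were 2491 ± 230.02 and 1852 ± 221 (SD, n = 4 each). The log2 fold change on the log2(normalized count + 1) scale was 0.43 ± 0.14 (SE; 95% interval 0.13 to 0.73), which is 1.35-fold. The difference missed the threshold of 0.05 when limma was fitted to all 11112 genes whose normalized counts averaged 50 or more (limma, Benjamini-Hochberg adjusted p = 0.119). In that fit 2.33% of all genes tested were called higher in ADAR3 IP and 1.74% lower, so that 57.3% of calls were higher (69.4% with library totals as scaling and 77.7% with TMM factors). In this limma fit the median log2 fold change over all tested genes was 0.25, and MAVS stood 0.18 above it. That lead depended on the fit: edgeR on the recovered reads of the same genes had a median of -0.00063 and MAVS 0.49 above it. With a replicate block added, edgeR had a median of 0.24 and MAVS 0.25 above it. Of the 11112 genes, 4602 (41.4%) had a larger log2 fold change than MAVS and 900 (8.10%) a smaller p. The first share depends on the genes let in. The median log2 fold change in limma was 0.37 at a minimum mean of 10 and 0.094 at a minimum mean of 200.

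Whether this difference was called depended on the test. In the authors' deposited table MAVS had a log2 fold change of 0.42 ± 0.13 (SE) and an adjusted p of 0.00992, which places it among the 8.75% of genes with an adjusted p that were called higher there. With TMM factors limma called MAVS (adjusted p = 0.0373) along with 4.04% of genes, and edgeR with its own filter on recovered reads did so too (adjusted p = 0.0443) with 6.9%. edgeR on the same genes as the limma fit did not (adjusted p = 0.0887). Of the 1571 genes called higher in the authors' deposited table, 1531 had a larger fold change than MAVS. In CPM, which scales by library totals alone, the log2 ratio was 0.51 ± 0.13 (SE), or 1.43-fold (exact permutation test on MAVS alone, two-sided, 4 against 4, p = 0.0286, the smallest this design allows; adjusted p = 0.0429 over 3 pairs of groups). Full separation of ADAR3 IP above pre-immune IP in CPM held for 10.7% of all genes tested. Given the SE of MAVS in limma, a log2 fold change of 0.55, or 1.47-fold, would have been needed to reach the smallest test statistic among called genes. That limit belongs to this fit and to the SE of MAVS: the smallest change called for any gene, with a smaller SE, was 0.43 in size.

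**Figure D2:**
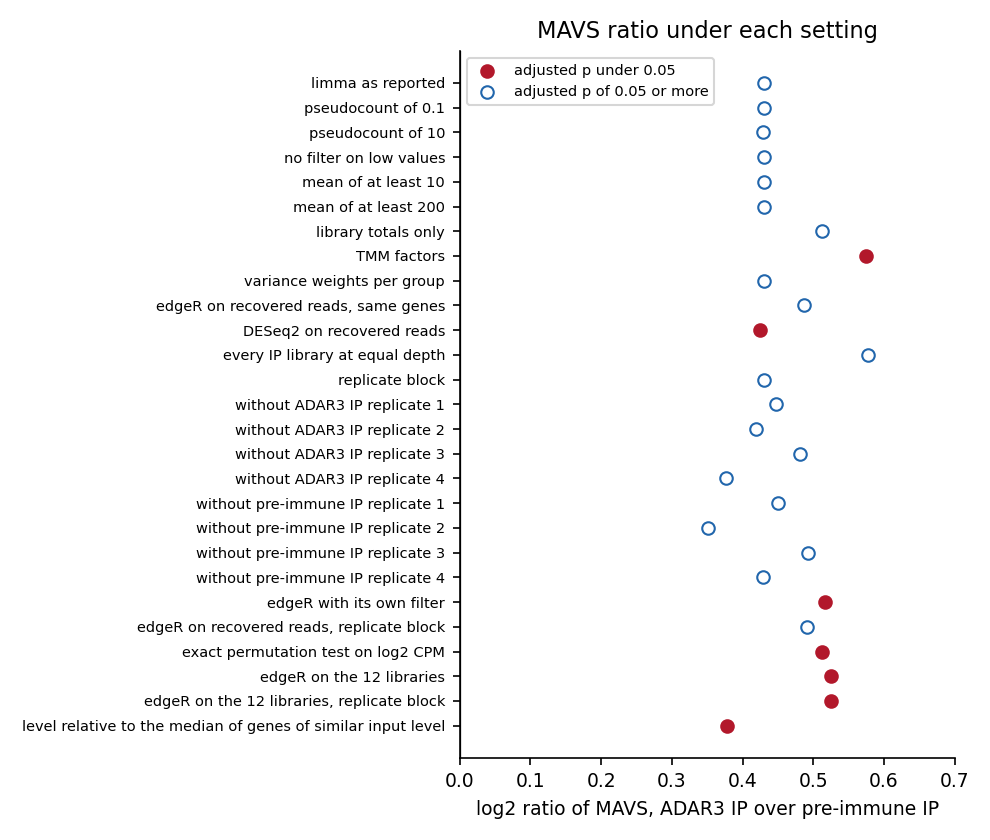
Log2 ratio of MAVS in ADAR3 IP over pre-immune IP (x axis) under the limma fit and each alternative (y axis); filled points passed an adjusted p of 0.05 and open points did not, with adjustment over all genes tested except for the exact permutation tests: on CPM it is over 3 pairs of groups, and relative to similar genes there was a single test. All ratios lie above 0, between 0.35 and 0.58, and the calls differ.

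Against input, MAVS was higher in ADAR3 IP by 1.52-fold. The 2 tables were normalized separately by the authors, so this comparison used reads recovered from both tables and scaled to library totals. The log2 ratio was 0.61 ± 0.066 (SE), and all 4 ADAR3 IP libraries stood above all 4 of input (exact permutation test, two-sided, p = 0.0286; adjusted p = 0.0429 over 3 pairs). Such full separation above input held for 29.3% of all genes tested, so it was common. A fit of all genes in the 12 libraries gave a log2 ratio of 0.61 for MAVS (edgeR quasi-likelihood test, adjusted p = 0.00176), with 6.71% of 14940 genes called higher in ADAR3 IP than in input. The same fit gave 0.52 for ADAR3 IP over pre-immune IP (edgeR adjusted p = 0.00538), where 12.7% of genes were called higher. That fit takes each gene's variation from all 12 libraries together, input included. The SD of MAVS on the log2 CPM scale was 0.045 in input, 0.23 in pre-immune IP and 0.12 in ADAR3 IP. The adjusted p between the IPs may therefore be too small. With the IP libraries alone, edgeR gave adjusted p-values of 0.0887 (genes of the limma fit) and 0.0443 (own filter). The comparisons of ADAR3 IP with input and with pre-immune IP share the ADAR3 IP libraries and are not independent of each other.

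Scaled to library totals, the serum IP held MAVS at close to its input level. Its log2 ratio of pre-immune IP over input was 0.093 ± 0.12 (SE), and this difference was smaller than the spread between the pre-immune libraries (exact permutation test, two-sided, p = 0.571; adjusted p = 0.571). edgeR on all 12 libraries gave 0.088 (adjusted p = 0.679), where 3.67% of genes were called higher in pre-immune IP than in input. The order of the mean levels was thus ADAR3 IP, pre-immune IP and input, of which the last pair did not differ beyond its spread. With median-ratio size factors over the 12 libraries in place of library totals the log2 ratio was 0.22 (exact permutation p = 0.0857, adjusted p = 0.0857). The pre-immune libraries spread over an SD of 0.23 on the log2 scale and could hide a modest difference.

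MAVS was among the 7.76% of all genes tested that exceeded both controls at once. For these 862 genes every ADAR3 IP library lay above every pre-immune and every input library in CPM. The smaller of the MAVS ratios over the controls, taken from group means, was 1.42-fold, against a median of 1.64-fold over the 862. Among them, 646 had a larger smaller ratio than MAVS, which places MAVS in the lower part of that set. Over all 11112 genes tested, 1276 (11.5%) exceeded MAVS in this measure.

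Genes of similar input level give a baseline with similar numbers of input reads. There were 676 other genes with a mean input level between 147 and 229 CPM, around the 184 CPM of MAVS, and all of them were in the limma fit. Their median log2 ratio of mean CPM in ADAR3 IP over pre-immune IP was 0.062, with quartiles of -0.24 and 0.38. MAVS stood at 0.50, and 121 of the 676 (17.9%) stood higher. For ADAR3 IP over input their median was -0.093, with quartiles of -0.68 and 0.38, while MAVS stood at 0.61 and 100 genes (14.8%) stood higher. For pre-immune IP over input their median was -0.21, MAVS stood at 0.11 and 204 genes (30.2%) stood higher. MAVS therefore lay above the upper quartile of its peers for both ADAR3 IP ratios and below it for the serum ratio, without being at the extreme of any.

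**Figure D3:**
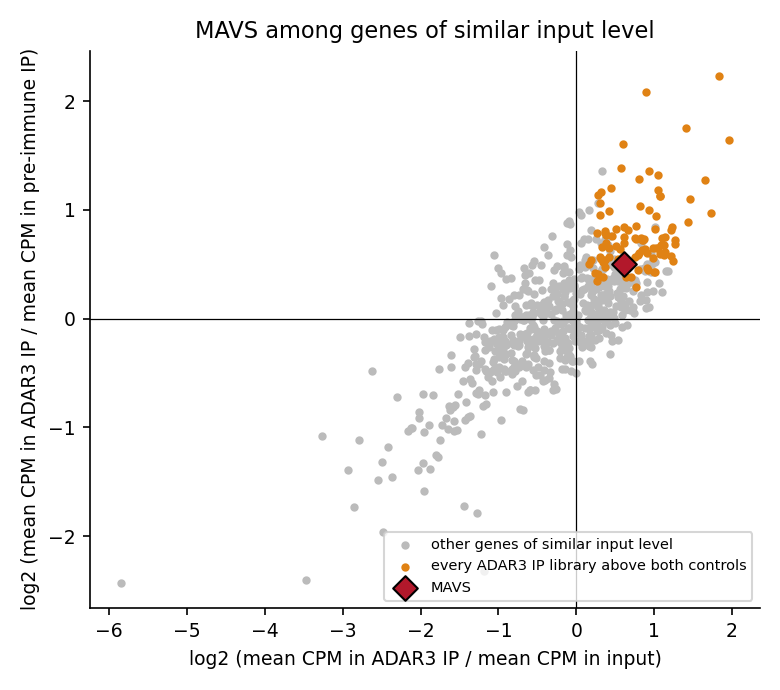
Log2 ratio of mean CPM in ADAR3 IP over pre-immune IP (y axis) against ADAR3 IP over input (x axis) for MAVS (diamond) and 676 genes of similar input level (points; orange where every ADAR3 IP library exceeded every library of both controls). MAVS stands at 0.50 and 0.61, inside the cloud of orange points; both axes share the ADAR3 IP libraries, so the slope of the cloud is no result.

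Calls among these peers were more frequent than among all genes. In the limma fit 49 of the 676 (7.25%) were called higher and 34 (5.03%) lower, beside 2.33% and 1.74% of all genes tested. Those tested reach down to lower levels than the peers. With a minimum mean of 200, limma called 314 of 7475 genes higher and 250 lower, against 259 and 193 of 11112. Whether level accounts for the higher share among peers was not tested. The smallest log2 fold change called higher among them was 0.52, which is above the 0.43 of MAVS. Of these peers, 139 (20.6%) had a larger limma log2 fold change than MAVS and 140 (20.7%) a smaller p. Over all genes tested these shares were 41.4% and 8.10%. In CPM every ADAR3 IP library exceeded every pre-immune library for 114 of the 676 (16.9%), beside 10.7% of all genes tested. Full separation above input held for 228 peers (33.7%), beside 29.3%. Every ADAR3 IP library exceeded both controls for 94 of the 676 (13.9%), beside 7.76%. MAVS varied less between replicates than most of its peers in pre-immune IP, where its SD on the log2 CPM scale was 0.23 against a median of 0.40, and 15.5% of peers had a smaller one. In ADAR3 IP its SD was 0.12 against a median of 0.14. Its SE in the limma fit, 0.14, was smaller than that of most peers, with a median of 0.21 and 42 genes (6.21%) below it.

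Set against the median of these peers within the same library, a measure that scales each library by its peers, MAVS stood higher in ADAR3 IP than in the serum IP. The peers were chosen on input level, which fixes this measure near 1 in input, so the input values are given as a description. Its level divided by the peer median was 1.61, 1.73, 1.52 and 1.84 in ADAR3 IP replicates 1 to 4. In pre-immune IP this ratio was 1.40, 1.06, 1.42 and 1.28. In input it was 0.990, 1.02, 1.02 and 1.08. The ADAR3 IP libraries all lay above the pre-immune libraries, the lowest of which was replicate 2. On the log2 scale ADAR3 IP exceeded pre-immune IP by 0.38 ± 0.12 (SE; exact permutation test, two-sided, p = 0.0286, the only test made on this measure). By rank, MAVS was above 78.6% to 89.8% of its peers in ADAR3 IP libraries, 56.1% to 80.2% in pre-immune libraries and 47.3% to 67.2% in input libraries.

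**Figure D4:**
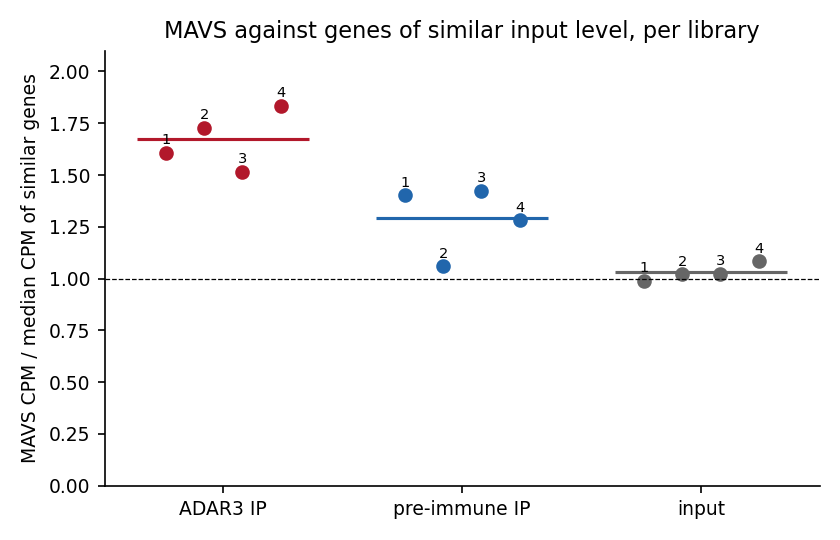
MAVS level divided by the median level of 676 genes of similar input level in the same library (y axis, starting at 0), by group; points are libraries with their replicate number, horizontal lines are group means and the dashed line marks a ratio of 1. Ratios run from 1.52 to 1.84 with antibody, 1.06 to 1.42 with serum and 0.990 to 1.08 in input.

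Among all genes with a read, MAVS ranked 434th to 600th by read count in ADAR3 IP libraries, 637th to 1020th in pre-immune libraries and 889th to 1023rd in input libraries. These ranks compare reads, which grow with transcript length, and not numbers of molecules. Of the 676 peers, the profile over the 12 libraries most like that of MAVS belonged to ENSG00000167548 and ENSG00000008441, with Pearson correlations of log2(CPM + 1) of 0.96 and 0.95. The files pair neither ID with a symbol. The first stood at 365 ± 9.24 CPM with antibody, 221 ± 33.8 with serum and 200 ± 3.56 in input (SD, n = 4 each). For the second the levels were 377 ± 7.56, 215 ± 72.2 and 162 ± 5.82 CPM. Both had a larger log2 fold change of ADAR3 IP over pre-immune IP than MAVS, at 0.66 and 0.79, and were called higher by limma (adjusted p of 0.0183 and 0.0347). Their choice by correlation over these same libraries favoured genes higher in ADAR3 IP, so these calls are no separate support. The 12 points of each correlation fall into the 3 groups of libraries and share their depth, and 11 of the 676 peers had a correlation above 0.9, against a median of -0.016.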

How the data were processed

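Per the labels' protocols, strand-specific libraries were made after depletion of ribosomal RNA, with 15 cycles of amplification and 1 µg of total RNA for each input; the molecule label reads polyA RNA instead, which was not resolved. The submitters' processing notes name GRCh38, STAR 2.7.7a, featureCounts and DESeq2 but not their roles; annotation and strand setting are not given in the sources. The authors deposited signal values normalized within each table (reads over a size factor), 1 table for the 8 IP and 1 for the 4 input libraries. The authors' deposited log2 fold changes, p-values and test score (a Wald statistic) stand in the IP table. At a tolerance of 0.001 reads, 100% of values were whole multiples of 1 read, so reads and library totals were recovered; no column of other samples was present.

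limma 3.58.1 (R 4.3.3, variance trend, pseudocount 1, minimum mean 50) was fitted to the deposited IP values, after being tested on simulated data. edgeR 4.0.16 on the recovered reads of the same genes called 299 higher and 195 lower, and DESeq2 1.42.0 was an alternative. Exact permutation tests used CPM from recovered reads. The member, lists and rules were chosen with earlier results of these data known. The named genes are MAVS and, of the 5 peers whose profiles correlate best with it, the first 2, because the files pair no ID with a symbol; the reference of 59792 genes held 0 Ensembl IDs. The 9 gene lists on the RIG-I-like receptor pathway, the ADAR family and mitochondrial membrane proteins, their counts and alternatives and the cell type markers were therefore not analysed here, and no sequence is shown. Replicates were distinct libraries: a chi-square of reads per degree of freedom was at least 2.53 for every pair within a group.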

Additional observations from a re-analysis of the deposited data

How the results depend on the processing

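MAVS was higher in ADAR3 IP than in pre-immune IP in all 26 alternatives, at log2 ratios of 0.35 to 0.58, and passed an adjusted p of 0.05 in 7. Of planned settings, TMM factors gave 0.58 (limma adjusted p = 0.0373) and DESeq2, whose result is that of the authors' deposited table again, 0.42 (0.00992). Of those chosen after seeing the data, edgeR with its own filter gave 0.52 (0.0443), edgeR on 12 libraries 0.52 (0.00538), the exact permutation test on CPM 0.51 (0.0429) and the level relative to similar genes 0.38 (0.0286). The rest reached adjusted p-values up to 0.376 (limma, variance weights per group). Leaving out 1 IP library gave 0.35 to 0.49, the extremes without pre-immune IP replicate 2 and 3 (limma adjusted p of 0.0685 to 0.357 over all 8). A replicate block gave 0.43 in limma (adjusted p = 0.223), 0.49 in edgeR on 8 libraries (0.203) and 0.52 on 12 (0.0183). Same-numbered IP libraries deviated together at r of -0.0016 to 0.0236. These values show no pairing, but cannot tell whether such libraries shared a culture or a day. MAVS stood 0.18 above the median gene in limma under 3 scalings (medians of 0.25, 0.33 with library totals and 0.39 with TMM), 0.016 below it without a filter, 0.062 above at a mean of 10, 0.34 at a mean of 200, 0.38 with DESeq2, 0.44 and 0.49 with edgeR (own filter, same genes) and 0.55 at equal depth.

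Over input, leaving out 1 library gave 0.55 to 0.65 (exact permutation p = 0.0571, the lowest possible with 7 samples; adjusted p = 0.0857), so the call was lost through fewer samples; the edgeR block gave 0.61 (0.00655). Pre-immune IP over input turned to -0.00087 without pre-immune IP replicate 3, reached 0.19 without replicate 2 and 0.22 with median-ratio factors, and never passed. MAVS led the median of similar genes by 0.35 to 0.49 in 15 alternatives. Among all genes, limma's 259 higher and 193 lower calls became 1571 and 1010 with DESeq2, 449 and 129 with TMM, 142 and 55 with variance weights and 165 and 96 at equal depth; 1493 and 659 higher with no filter or a mean of 10; 998 higher with edgeR's own filter; 89 lower with edgeR's block; and 106 to 446 and 65 to 345 with 1 library left out. The cause was not tested. The shallowest library, pre-immune IP replicate 4, held 355 MAVS reads, with a counting error of 5.31%. The coefficient of variation of MAVS between the pre-immune libraries was 16.0%.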
